A study of Arabidopsis thaliana with 29 samples.

Results

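The seed storage albumins and cruciferins of *Arabidopsis thaliana* were followed here through seedlings of Polycomb group (PcG) mutants. They are 10 of the 33602 genes in the count files: the 2S albumin genes SESA1 (AT4G27140), SESA2 (AT4G27150), SESA3 (AT4G27160), SESA4 (AT4G27170) and SESA5 (AT5G54740), the 12S globulin (cruciferin) genes CRA1 (AT5G44120), CRB (AT1G03880), CRC (AT4G28520) and AT1G03890, and PAP85 (AT3G22640), which encodes a vicilin-like 7S globulin. They were taken by identifier, and all 10 had a row in each of 14 RNA-seq libraries and a position that could be compared with 10 lists of H3K27me3 peaks. The study asked which PcG proteins keep floral and embryonic programs silent in seedlings. All plants were in the Col background, were harvested at 2 weeks in long days and are labelled as seedlings without roots. The RNA-seq groups had 2 libraries each: Col-0, *clf-29*, *swn*, *clf-29swn-21*, *atbmi1a,b*, *atring1a,b*, and a pair of LHP1 mutant lines, *tfl2-2* (library 1) and *lhp1-6* (library 2). CLF and SWN are methyltransferases of Polycomb repressive complex PRC2, which makes H3K27me3. AtBMI1A, AtBMI1B, AtRING1A and AtRING1B are RING-finger subunits of PRC1, and LHP1 binds H3K27me3. The H3K27me3 libraries covered the same genotypes except *swn* and *clf-29swn-21*. Growth is labelled as 21 °C for library 1 and 22 °C for library 2 of each genotype, except that both *swn* RNA libraries are labelled 22 °C and both RNA libraries of the LHP1 lines 21 °C. The Methods give 22 °C and name no other temperature. Temperatures below are those of the labels, and whether growth truly differed cannot be told. According to the Methods, *clf-29swn-21* was raised on medium and taken whole, and the other lines grew in soil, so medium and genotype cannot be told apart in that line. Nothing in the labels says whether the 2 libraries of a group came from separate cultures, and p-values then measure only the spread between these libraries.

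Seed storage proteins are made in the maturing embryo, packed into protein storage vacuoles, and broken down at germination to feed the seedling. The 2S albumins are small, cysteine-rich proteins cut into a pair of disulfide-linked chains, and the 12S cruciferins and 7S vicilins belong to the cupin fold and assemble into large oligomers. In the embryo their genes are switched on by the B3-domain factors LEC2, FUS3 and ABI3, which bind the RY motif, together with bZIP factors that bind G-box and ABA-response elements. After germination these genes are known PcG targets and carry H3K27me3 in vegetative tissue.

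Each RNA-seq library held 17277027 to 36205758 counts on genes, with a median of 27823570.5. Levels are given as CPM, the counts on a gene per 1000000 counts on all genes of the library. The genes named in the genotypes were counted as a check on the labels. CLF stood at 0.434 to 2.60 CPM in the lines that carry *clf-29* and at 27.8 to 37.4 CPM in Col-0, LHP1 at 0 and 1.71 CPM in the LHP1 lines against 27.6 to 34.1 CPM in Col-0, and RING1B at 0.678 to 1.72 CPM in *atring1a,b* against 7.83 to 14.9 CPM in Col-0. Counts on BMI1B were lower in *atbmi1a,b* (4.45 and 4.77 CPM) than in Col-0 (11.8 and 16.0 CPM). Counts did not fall for every mutated gene: SWN stood at 87.2 to 88.2 CPM in the libraries labelled *swn* and at 115 to 131 CPM in *clf-29swn-21*, against 46.8 and 68.2 CPM in Col-0. RING1A stood at 631 and 813 CPM in the libraries labelled *atring1a,b*, against 13.9 and 17.8 CPM in Col-0, and BMI1A at 14.1 and 22.1 CPM in *atbmi1a,b*, against 10.7 and 14 CPM. According to the Methods, the authors checked each genotype with the RNA-seq data, and that check was not repeated here. Counts over a whole gene cannot show whether an insertion stops the protein, so these genotypes, *swn* above all, stand here as labelled.

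The 10 genes lie at 6 loci. SESA1 to SESA4 form a tandem array on chromosome 4, from position 13607329 to 13614283 on the plus strand, with 1032 to 1720 bases between neighbours, and each has 1 exon. CRC, with 4 exon blocks, lies on the same chromosome at 14087556 to 14089796. SESA5 (22238358 to 22239187) and CRA1 (17756238 to 17758336) are on the minus strand of chromosome 5. CRB (985751 to 988146) and AT1G03890 (989198 to 991020) are neighbours on chromosome 1, 1051 bases apart. PAP85 is on the minus strand of chromosome 3, at 8011724 to 8013941. Positions are those of TAIR10.1. Within the array, coding sequences shared 82.6% to 94.1% of aligned bases, SESA2 and SESA3 being the closest pair, SESA5 shared 69.2% to 69.8% with each of them, and CRA1 and CRB shared 76.4%. No run of 50 bases was identical between the transcripts of any pair of the 10 genes, so a read of that length or more without mismatches matches only 1 of them.

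The 250 bases upstream of the annotated starts are shown for SESA2 and SESA5, albumin genes on different chromosomes that share 1 arrangement of motifs, and for CRC, an abundant cruciferin gene. They were read from the RefSeq genome TAIR10.1, and capitals mark the RY motif (CATGCA) and the G-box (CACGTG) on either strand.
SESA2, chr4:13609091-13609340, plus strand: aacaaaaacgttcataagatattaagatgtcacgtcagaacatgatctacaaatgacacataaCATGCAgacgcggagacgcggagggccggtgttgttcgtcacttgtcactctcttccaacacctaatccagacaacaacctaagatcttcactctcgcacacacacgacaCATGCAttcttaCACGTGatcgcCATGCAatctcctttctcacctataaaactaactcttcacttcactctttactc
SESA5, chr5:22239188-22239437, minus strand: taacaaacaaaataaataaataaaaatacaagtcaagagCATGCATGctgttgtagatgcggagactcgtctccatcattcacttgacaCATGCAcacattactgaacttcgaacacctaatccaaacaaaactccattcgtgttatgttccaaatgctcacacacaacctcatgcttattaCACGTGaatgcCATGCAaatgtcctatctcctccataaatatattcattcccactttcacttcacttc
CRC, chr4:14087306-14087555, plus strand: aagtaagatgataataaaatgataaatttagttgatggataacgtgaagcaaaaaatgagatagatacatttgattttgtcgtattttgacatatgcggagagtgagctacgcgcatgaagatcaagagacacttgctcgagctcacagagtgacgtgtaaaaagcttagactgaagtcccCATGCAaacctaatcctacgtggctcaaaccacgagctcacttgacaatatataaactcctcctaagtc

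An RY motif was present upstream of 9 of the 10 genes and in 8.51% of 26711 promoters of the same length. The G-box was present in SESA1 to SESA5 and in none of the other 5, against 6.58% of all promoters. In all 5 albumin genes the G-box began 65 to 68 bases before the start, and an RY motif began 54 to 57 bases before it, so that 5 bases separated the motifs in each gene. In SESA1 to SESA4 a further RY motif lay just upstream of the G-box, at 77 to 87 bases before the start. The number of RY matches, overlapping ones included, ran from 1 in CRC and AT1G03890 to 7 in SESA3 among the 9 genes that had the motif. The ABA-response core (ACGTG, part of every G-box) was in 6 of the 10 (23.1% of promoters), GAGAGA in SESA3 and SESA4 only (20.4%), and the telo box (AAACCCT) in 0 of the 10 (7.27%). These are matches of letters, and no binding was measured.

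**Figure D1:**
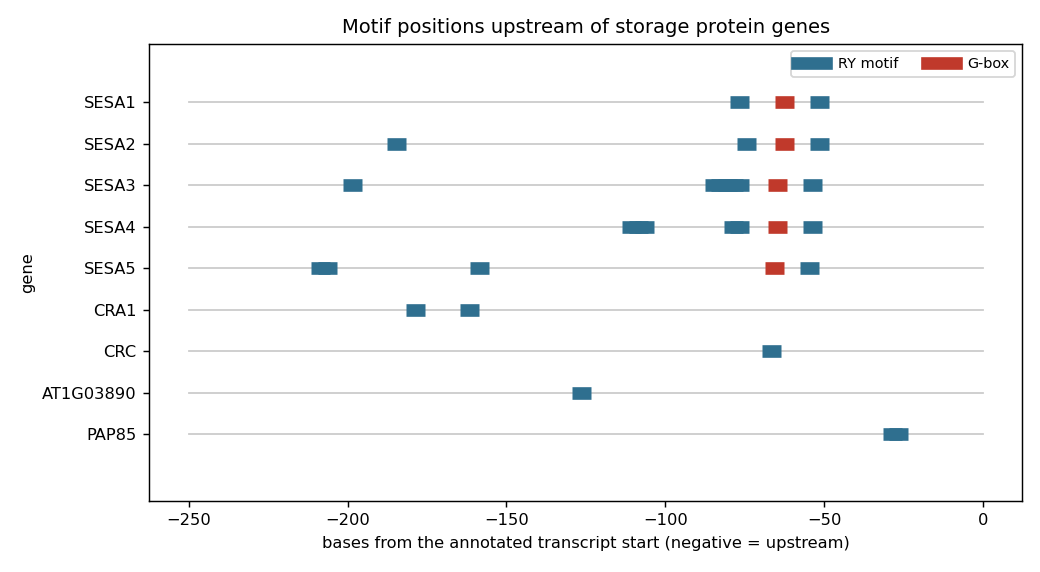
Positions of the RY motif (blue) and the G-box (red) in the 250 bases upstream of 9 of the genes, with distance from the annotated transcript start on the x axis. The 5 albumin genes carry a G-box 60 to 68 bases before the start with an RY motif beside it.

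In Col-0 the 10 genes were close to silent, and the *clf-29*, *swn* and LHP1 libraries stayed in the same low range. The summed level of the 10 was 7.43 CPM (264 counts) and 1.4 CPM (30 counts) in Col-0, 3.39 and 0.724 CPM in *clf-29*, 0.677 and 0.481 CPM in the libraries labelled *swn*, 4.68 CPM in *tfl2-2* and 6.47 CPM in *lhp1-6*. Library 2 was below library 1 in Col-0 and in *clf-29*, and in these 4 groups the 4 libraries labelled 21 °C held 118 to 264 counts on the 10 genes where the 4 labelled 22 °C held 12 to 30. CRA1 reached 2.20 and 0.0467 CPM in Col-0, 1.26 and 1.71 CPM in the LHP1 lines, and 0.775 and 0 CPM in *clf-29*. CRC stood at 1.69 and 0 CPM in Col-0, where the 0 allows up to 0.14 CPM (3 counts, for counting error only). In the *swn* libraries SESA3, SESA4, CRB, CRC and AT1G03890 had 0 counts in both, which allows up to 0.0657 CPM over the group (3 counts).

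None of the 10 genes passed the test in *clf-29*, the LHP1 lines or the libraries labelled *swn* against Col-0 (edgeR quasi-likelihood test over 22060 genes, Benjamini-Hochberg adjusted p under 0.05). An unadjusted p under 0.05 was reached by 0 of the 10 in each of these 3 comparisons, and DESeq2 called 0 in each. Over all genes tested, 0.0227% were called higher in *clf-29*, 0.0816% in the LHP1 lines and 0% in *swn*, with 0.00453%, 0.0181% and 0% called lower. By the criterion of the study, an absolute log2 fold change above 1 with an unadjusted p under 0.05, 1.99%, 2.01% and 1.84% were higher. The study set that criterion on DESeq values, and here and below it is set on those of edgeR. Without regard to the test, 1 of the 10 had groups that did not overlap in each comparison. SESA5 was lower in *clf-29* (1 and 0 counts, against 4 and 1 in Col-0). AT1G03890 was higher in the LHP1 lines (3 and 2 counts, against 2 and 0). CRA1 was lower in *swn* (0 and 1 counts, against 78 and 1). Each of these separations rested on very few counts, so no direction is read from them. Over all genes, 12.3%, 20.7% and 20.3% were higher and 9.26%, 10.3% and 15.2% lower without overlap in these comparisons, in the same order. These comparisons rest on 12 to 264 counts over the 10 genes in a library.

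**Figure D2:**
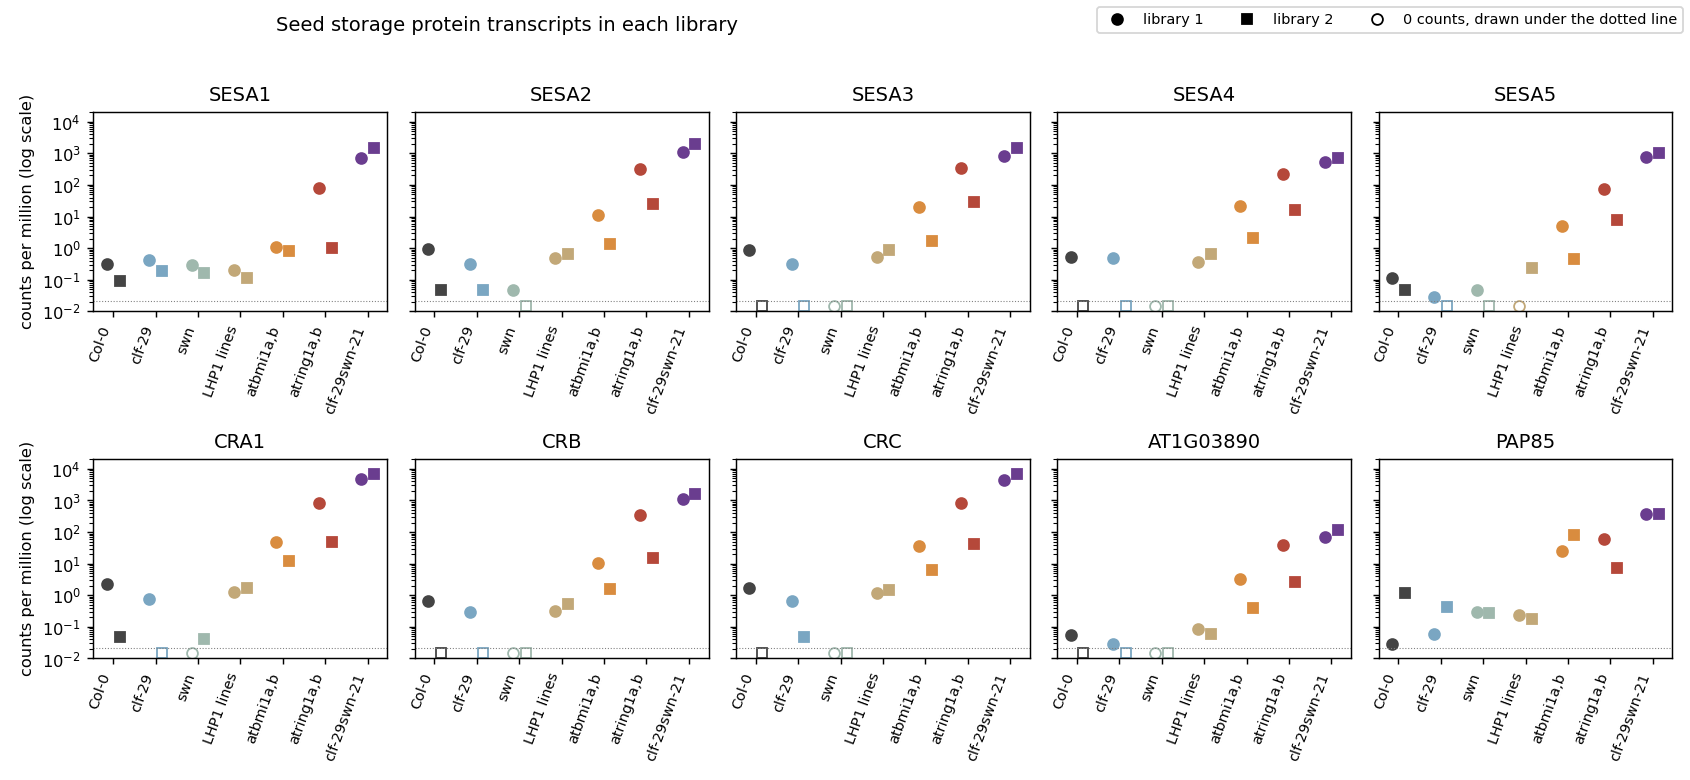
Level of each storage protein gene in every library, in CPM on a log axis, with circles for library 1 and squares for library 2. Open symbols under the dotted line are libraries with 0 counts. In all 10 panels both *clf-29swn-21* libraries lie above every other library.

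In *clf-29swn-21* the storage protein genes became some of the most abundant transcripts of the seedling. Together they took 14708 and 22316 CPM, 1.47% and 2.23% of all gene counts, against 7.43 and 1.4 CPM in Col-0. CRA1 and CRC held ranks 1 and 2 among all genes, and 7 and 8 of the 10 genes were within the 100 most abundant. All 10 rose against Col-0 by the adjusted test, where 16.9% of all tested genes were called higher, and the groups did not overlap for any of the 10 (40.1% of all tested genes were higher without overlap). The median log2 fold change of the 10 was 11.44, against 0.01 over all genes. DESeq2 and the criterion of the study (16.3% of all genes) also called all 10.

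Among the cruciferins, CRA1 stood at 4837 and 6747 CPM in *clf-29swn-21* against 2.20 and 0.0467 CPM in Col-0, a log2 fold change of 12.06 ± 2.1 (SE) with an adjusted p of 0.00247. CRC stood at 4358 and 6968 CPM against 1.69 and 0 CPM (12.42 ± 2.29, adjusted p = 0.00422). CRB stood at 1122 and 1587 CPM against 0.648 and 0 CPM. Its log2 fold change was 11.65 ± 2.12, within the range of the other cruciferins. AT1G03890 was the weakest cruciferin gene, at 68.3 and 119 CPM, and with only 2 counts in Col-0 its ratio was 2499, with a counting interval from 692 to 20637.

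Among the albumins, SESA2 reached the highest level, at 1124 and 1908 CPM against 0.957 and 0.0467 CPM in Col-0 (11.23 ± 1.84, adjusted p = 0.00177). SESA1 stood at 710 and 1426 CPM against 0.310 and 0.0935 CPM. SESA3 stood at 800 and 1477 CPM against 0.901 and 0 CPM, and SESA4 at 546 and 709 CPM against 0.535 and 0 CPM. SESA2 was thus highest and SESA4 lowest of the 4 neighbours in both libraries. SESA5, away from the array, stood at 758 and 1007 CPM against 0.113 and 0.0467 CPM and had the largest log2 fold change of the 10 (13.06 ± 1.84, adjusted p = 8.4e-04). PAP85 had the smallest, 9.25 ± 1.54 (adjusted p = 0.0019), at 385 and 368 CPM against 0.0282 and 1.17 CPM. Both ranks rested on single Col-0 libraries: without Col-0 library 2 PAP85 was at 13.29 and SESA5 at 12.66, and without Col-0 library 1 CRC was at 20.11, SESA5 at 13.84 and PAP85 at 8.08.

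By temperature label, the summed level was 1979 times that of Col-0 at 21 °C and 15914 times at 22 °C, the second ratio resting on 30 counts in Col-0. Marker genes of other tissues moved in the same comparison, where 16.9% of all tested genes rose and 15.7% fell. Of 8 leaf genes (photosynthesis), 8 of 8 fell (median log2 fold change -2.14), their sum being 3374 to 5103 CPM against 13635 to 16809 CPM in Col-0. Of 15 root genes, 10 were tested and 6 rose, and their sum was 98.9 and 20.4 CPM against 1.83 to 3.88 CPM in Col-0. The Casparian strip gene CASP1 stood at 15.5 and 0.752 CPM, against 0.338 and 0.654 CPM in Col-0, and the root cap gene SMB at 13.3 and 10.4 CPM, with 0 counts in both Col-0 libraries. Of 7 seed coat and endosperm genes, 4 were tested and 3 rose, among them EPR1, an endosperm extensin-like gene, at 312 and 313 CPM with 0 counts in both Col-0 libraries. The seed coat gene BAN was at 0 counts in both *clf-29swn-21* libraries. In the same list TT16 stood at 7.98 and 12.9 CPM against 0.113 and 0 CPM in Col-0. ZOU stood at 1.43 and 1.79 CPM, with 0 counts in both Col-0 libraries. TT10 had 5 and 5 counts and TT12 had 2 and 1 in *clf-29swn-21*, and AGL62 stood at 0.966 and 0.579 CPM against 0.648 and 1.17 CPM. The part of these tissues in the storage protein result was not tested, and in bulk libraries more cells of a kind and more RNA per cell cannot be told apart.

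In *atring1a,b* the genes stood between these extremes, and the libraries of the pair were far apart. The summed level was 3136 CPM in library 1 and 196 CPM in library 2. Even library 2 was far above both Col-0 libraries. All 10 genes were above Col-0 without overlap, where 19.5% of all tested genes were higher without overlap. By the adjusted test 2 of the 10 rose, SESA2 and SESA5, where 1.26% of all genes were called higher. By the criterion of the study all 10 passed (5.01% of all genes). DESeq2 also called all 10, with no share of all genes taken. The count of 2 became 0 without Col-0 library 1, without Col-0 library 2 or without *atring1a,b* library 1, and 7 without *atring1a,b* library 2. With a term for labelled temperature, or with a replicate block, 8 of the 10 were called. No share of all genes was taken for these fits or for those without 1 library. Whether calls over all genes moved as well is therefore not known. The block set libraries titled as a second replicate apart from all others, so both LHP1 lines were in the first block. Within labelled temperatures the summed ratio to Col-0 was 422 at 21 °C and 139 at 22 °C. Markers of leaf, root, and seed coat and endosperm gave 0 called genes in edgeR here, only EPR1 (0.388 and 0.0484 CPM) having an unadjusted p under 0.05, and the leaf sum was 14671 to 18299 CPM, against 13635 to 16809 CPM in Col-0.

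SESA5 stood at 73.0 and 7.89 CPM in *atring1a,b* against 0.113 and 0.0467 CPM in Col-0 (log2 fold change 8.68 ± 1.66, adjusted p = 0.0398), and SESA2 at 329 and 24.9 CPM against 0.957 and 0.0467 CPM (8.20 ± 1.65, adjusted p = 0.0484). CRA1 stood at 808 and 50 CPM and CRC at 810 and 42.0 CPM, with adjusted p-values of 0.0688 and 0.0961. CRB stood at 359 and 15.6 CPM, and AT1G03890 at 38.1 and 2.71 CPM. In the array, SESA3 stood at 352 and 28.2 CPM and SESA4 at 227 and 15.9 CPM. SESA1, their neighbour, stood at 78.7 CPM in library 1 and at 1.02 CPM in library 2. The gap between the libraries was thus widest for SESA1, and library 1 was the higher for all 10 genes.

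**Figure D3:**
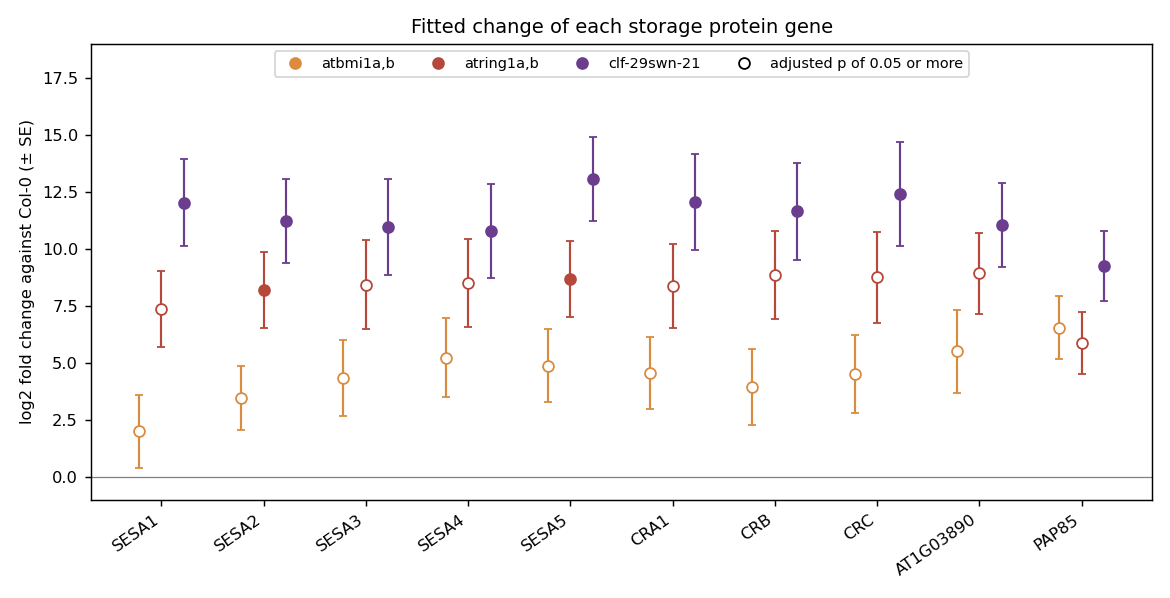
Fitted log2 fold change of each gene against Col-0, with standard errors, in *atbmi1a,b*, *atring1a,b* and *clf-29swn-21*. Filled points passed an adjusted p of 0.05. Values are lowest in *atbmi1a,b* and highest in *clf-29swn-21* for 9 genes, and PAP85 is the exception.

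In *atbmi1a,b* the summed level was 182 and 106 CPM, all 10 genes were above Col-0 without overlap (14.4% of all tested genes were), and none passed the adjusted test, where 0.825% of all genes were called higher. An unadjusted p under 0.05 was reached by 9 of the 10, all but SESA1, and the same 9 met the criterion of the study (3.97% of all genes). DESeq2 called 2, PAP85 (adjusted p = 8.99e-06) and AT1G03890 (adjusted p = 0.0163). CRA1 stood at 47.0 and 11.8 CPM, CRC at 37.3 and 6.35 CPM and CRB at 10.3 and 1.62 CPM. In the array, SESA4 was highest, at 22.3 and 2.09 CPM, followed by SESA3 (19.7 and 1.66 CPM) and SESA2 (11.5 and 1.37 CPM). SESA1 stood at only 1.05 and 0.794 CPM against 0.310 and 0.0935 CPM in Col-0, a fold of means of 4.57 and the smallest of the 10. SESA5 stood at 5.11 and 0.469 CPM, and AT1G03890 at 3.26 and 0.397 CPM.

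PAP85, the vicilin-like gene, did not follow the other 9. In *atbmi1a,b* it stood at 25.0 and 79.3 CPM against 0.0282 and 1.17 CPM in Col-0 (log2 fold change 6.55 ± 1.4, edgeR adjusted p = 0.0757), the largest fitted change of the 10 with all libraries. Without Col-0 library 1 it was 5.4, against 12.22 for CRC, and without *atbmi1a,b* library 2 it was 5.49, against 6.34 for AT1G03890. Library 2, where the other 9 were lower than in library 1, was the one with more PAP85. In *atring1a,b* PAP85 stood at 61.0 and 7.31 CPM. The same gene also made up a different share of the storage protein counts in each library. It was 83.3% of them in Col-0 library 2, 60% in *clf-29* library 2, 42.9% and 58.3% in the *swn* libraries and 74.9% in *atbmi1a,b* library 2, all labelled 22 °C. It was 0.379% in Col-0 library 1, 1.69% in *clf-29* library 1 and 13.7% in *atbmi1a,b* library 1, and 1.65% to 4.91% in the LHP1, *atring1a,b* and *clf-29swn-21* libraries, which include 2 labelled 22 °C. In Col-0, where only 30 counts fell on the 10 genes in library 2, 25 of these were PAP85.

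**Figure D4:**
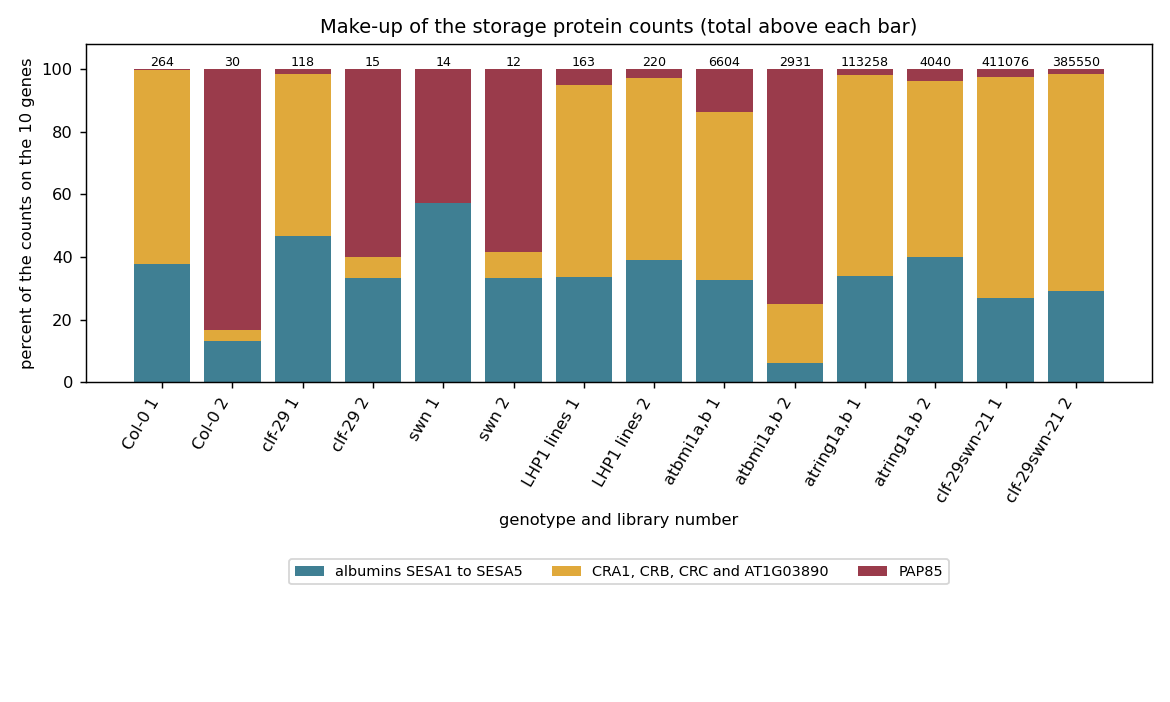
Share of the counts on the 10 genes that fell on albumins, cruciferins and PAP85 in each library, with the number of counts above each bar. PAP85 is the largest class in Col-0, *clf-29* and *atbmi1a,b* library 2 and in *swn* library 2, and albumins and cruciferins together hold most counts in the other libraries.

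The shares of the other genes were alike in some libraries and not in others. CRA1 took 29.5% of the storage protein counts in Col-0 library 1, 27% in *tfl2-2*, 26.4% in *lhp1-6*, 25.8% in *atbmi1a,b* library 1, 25.8% and 25.6% in *atring1a,b* and 32.9% and 30.2% in *clf-29swn-21*, but 22.9% in *clf-29* library 1, 11.1% in *atbmi1a,b* library 2 and 3.33% in Col-0 library 2, the last 2 being libraries in which PAP85 led. Counts on CRA1 were 0.968 to 1.3 times those on CRC in every library with over 3 counts on CRC except *atbmi1a,b* library 2, where they were 1.85 times. SESA1 took 4.83% and 6.39% in *clf-29swn-21* but 0.52% to 2.51% in *atring1a,b* and 0.575% and 0.751% in *atbmi1a,b*. SESA4 ran from 1.98% and 12.2% in *atbmi1a,b* to 3.71% and 3.18% in *clf-29swn-21*.

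Per length of exon, as CPM divided by the summed exon length in kilobases (RPKM), the order of the genes could be read between genes. In *clf-29swn-21* CRC (3149 ± 1026, SD, n = 2) and CRA1 (3106 ± 724) led and did not differ beyond their spread. SESA2 (2062 ± 754), SESA1 (1519 ± 721) and SESA3 (1482 ± 623) followed, also within their spread of each other, then SESA5 (1063), SESA4 (912) and CRB (830). PAP85 (222 ± 7.17) and AT1G03890 (61.7 ± 23.7) were lowest. In *atring1a,b* SESA3, SESA2, CRC and CRA1 had means of 247, 241, 237 and 230 RPKM, closer to each other than the libraries were. In *atbmi1a,b* PAP85 led at 30.7 ± 22.6 RPKM and SESA1 was ninth at 1.31 ± 0.257 RPKM.

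The PRC1 mutants were also compared with each other. The mean of the summed level was 11.6 times higher in *atring1a,b* than in *atbmi1a,b*, 17.2 times at 21 °C and 1.85 times at 22 °C. Of the 10 genes, 6 were higher without overlap (21.1% of all tested genes were) and none passed the adjusted test (0.118% of all genes were called higher), while 8 had an unadjusted p under 0.05 and met the criterion of the study (3.64%), and DESeq2 called 1. The largest fitted difference was that of SESA1 (log2 fold change 5.36 ± 1.45, adjusted p = 0.257), which fell to 0.14 (adjusted p = 0.946) without *atring1a,b* library 1. PAP85 had the opposite sign (-0.68 ± 1.04, adjusted p = 0.791), and its sign turned without *atbmi1a,b* library 2 (0.41) or *atring1a,b* library 2 (0.14). The order of the PRC1 lines thus did not pass the adjusted test for any gene.

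The double mutant of the PRC2 methyltransferases was further compared with each of its single mutants, a comparison that asks whether CLF and SWN stand in for each other. All 10 genes rose against *clf-29* and against the libraries labelled *swn* (17.6% and 18.5% of all tested genes were called higher, and 16.3% and 17.7% by the criterion of the study, which all 10 met), without overlap between groups for any (44.1% and 50.5% of all genes). The median log2 fold change was 12.51 against *clf-29*. The summed level was 9007 times that in *clf-29*, 4343 times at 21 °C and 30828 times at 22 °C. Against *swn*, whose 2 libraries are both labelled 22 °C, SESA1 was 4743-fold higher (10 counts in *swn*) and PAP85 1321-fold (13 counts). The genes without a count in *swn* were at least 81453-fold higher (CRC), 19774-fold (CRB), 16099-fold (SESA3), 9255-fold (SESA4) and 1336-fold (AT1G03890), from a floor of 3 counts over the group. These comparisons and those with Col-0 share the *clf-29swn-21* libraries.

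H3K27me3 peaks lay over all 10 genes in Col-0 library 1, where 21.4% of 32835 genes with a nuclear position had a peak over the gene or the 1000 bases upstream. A single peak from 13606618 to 13614542 on chromosome 4, 7925 bases long, covered SESA1 to SESA4 and no other gene. CRA1 lay under a peak of 2475 bases with the highest score among the peaks over these genes (802.59), SESA5 under 2337 bases, CRB under 2793, PAP85 under 2477 and AT1G03890 under 2073. The peak over CRC was 6107 bases long and ran into the next gene, AT4G28530, and the peak over SESA5 ran into AT5G54745. In Col-0 library 2 peaks lay over 6 of the 10 (15.6% of all genes), with none at CRB, CRC, AT1G03890 or PAP85, and the peak over the array was 8637 bases long. The score is the peak caller's own value, which grows with depth, so scores are not compared between libraries.

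In the mutant lists the number of genes with a peak ran from 2 to 10. Both *tfl2-2* and *lhp1-6* had peaks at all 10 genes (26.8% and 23.4% of all genes). In *clf-29* library 1 all 10 had a peak (21.3%), and in library 2 only SESA5 and CRA1 did, although that list held more genes overall (22.7%). In *atbmi1a,b* 8 and 7 genes had one (17.8% and 19.1%), and CRC had none in either list. In *atring1a,b* all 10 had one in library 1 (35.9%), and SESA5, CRA1 and PAP85 in library 2 (10.4%). In library 1 of *atring1a,b* the peaks over 9 of the genes shared a score of 3100, as did 1965 of the 6579 peaks of that list. The array was covered by 1 peak in both Col-0 lists, *lhp1-6*, *clf-29* library 1, *atbmi1a,b* library 2 and *atring1a,b* library 1, and by 3 peaks in *tfl2-2* and *atbmi1a,b* library 1. CRA1 and SESA5 were under a peak in all 10 lists, including those of *atbmi1a,b* and *atring1a,b*, where their transcripts stood at 11.8 to 808 CPM and 0.469 to 73.0 CPM. The lists hold peaks, not read densities, and a missing peak shows only that the caller's threshold was not met. H3K27me3 in *clf-29swn-21*, where transcripts were highest, was not analysed here.

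**Figure D5:**
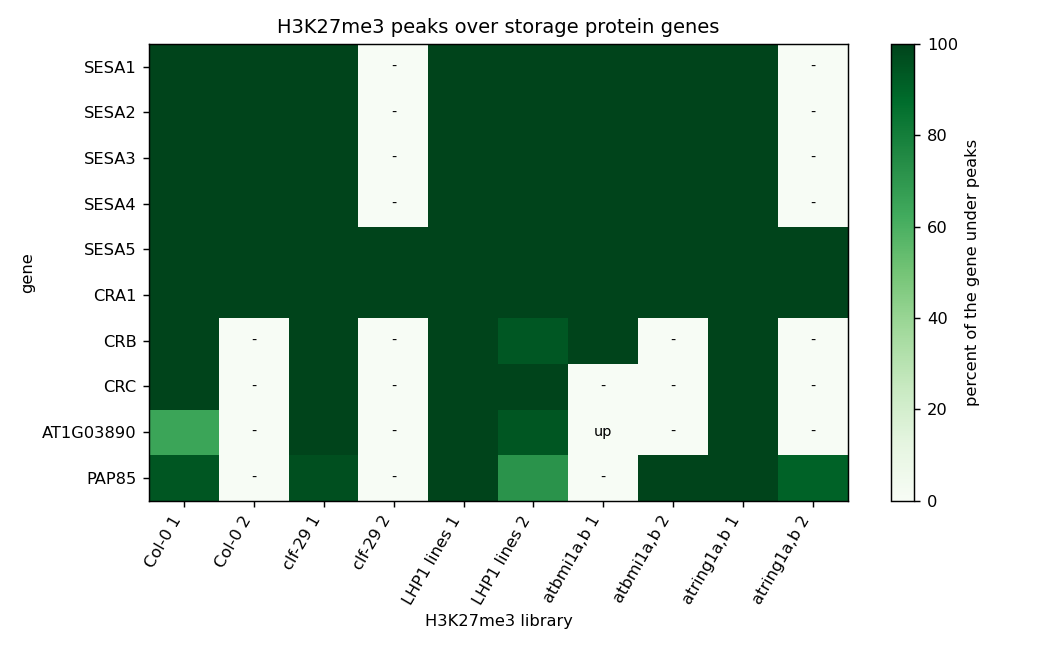
Percent of each gene under H3K27me3 peaks in the 10 peak lists, from white (0) to dark green (100). A dash marks no peak over the gene or the 1000 bases upstream, and "up" a peak only upstream. SESA5 and CRA1 are covered in every list, and the blank cells fall mainly in library 2.

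The nearest gene on each side of the 6 loci, 12 in all, was taken by position after the values of the 10 genes were known, and 10 of the 12 could be tested. In *clf-29swn-21* against Col-0, 2 of the 10 neighbours rose and 3 fell (16.9% and 15.7% of all tested genes did), with log2 fold changes from -4.29 to 3.82 and a median of 0.51, against 10 of 10 storage genes. In *atring1a,b* 0 of 10 were called (edgeR adjusted p, lowest 0.523), with changes from -1.11 to 1.07. The genes that flank the albumin array, AT4G27130 and AT4G27180, lie 860 and 538 bases from it. Both overlapped an H3K27me3 peak in Col-0 library 2, *atbmi1a,b* library 2 and *atring1a,b* library 1, and in no other list. AT4G27130 stood at 194 and 196 CPM in *clf-29swn-21* and at 35.3 and 171 CPM in Col-0, and AT4G27180 at 78.4 and 95.1 CPM against 57.3 and 48.6 CPM, and neither passed the test (adjusted p = 0.45 and 0.0835). AT1G03900 begins 85 bases beyond AT1G03890 and stood at 141 and 145 CPM against 61.1 and 115 CPM (adjusted p = 0.232). AT4G28530, which shares the peak of CRC in Col-0 library 1, was one of the 2 that rose, from 0.141 and 0.187 CPM to 3.26 and 2.08 CPM (3.82, adjusted p = 0.00156), while CRC itself stood at 4358 and 6968 CPM. AT5G54745, which shares the peak of SESA5 in both Col-0 lists, stood at 0 CPM in every RNA-seq library and could not be tested.

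Genes with the most similar profile over the 14 libraries were found by the root mean square difference of log2(CPM + 0.5) from that of the summed 10. Each profile was first centred on its own mean over the libraries. The closest was AT4G25140, the oil body protein gene OLEO1 (1.19), followed by AT5G40420, OLEO2 (1.38), AT1G65090 (1.48), the cupin gene AT2G28490 (1.5) and the cupin gene AT4G36700 (1.62). AT3G01570 (OLEO5), AT1G47540 and AT3G54940 had values of 1.65, 1.66 and 1.81. The 10 genes themselves, which make up the sum, lay between 0.489 (CRA1) and 2.34 (AT1G03890). The distance depends on the size of the changes as well as on shape, and through the added 0.5 on low levels. It was used for description only.

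Other parts of the seed program were read from lists. For these lists, the share of all tested genes called higher was 16.9% in *clf-29swn-21*, 1.26% in *atring1a,b* and 0.825% in *atbmi1a,b*. Oil body proteins coat the lipid stores of the embryo, and their genes moved with the storage proteins: of 7 listed, 6 were tested and 6 rose in *clf-29swn-21* (median log2 fold change 10.84). In *atring1a,b* 4 of the 6 rose, OLEO1, OLEO2, OLEO3 and OLEO5, and in *atbmi1a,b* 0 passed the adjusted test of edgeR and 6 had an unadjusted p under 0.05. OLEO1 stood at 890 and 1297 CPM in *clf-29swn-21*, 186 and 15 CPM in *atring1a,b*, 21.5 and 2.85 CPM in *atbmi1a,b* and 0.282 and 0.0467 CPM in Col-0. Its libraries were ordered as those of CRA1 in each of these mutants. Of the 5 other cupin genes, 4 were tested and 4 rose in *clf-29swn-21* and 2 in *atring1a,b*. AT2G28490 stood at 1487 and 1861 CPM in *clf-29swn-21*, above every albumin gene in library 1 and below only SESA2 in library 2.

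Genes for processing and sorting of storage proteins were mostly present in all seedlings. In *clf-29swn-21* 5 of 9 rose: betaVPE, the seed-type vacuolar processing enzyme that cleaves these proteins (7.53 ± 0.66), alphaVPE, deltaVPE, PASPA3 and PDIL1-1. The vegetative enzyme gammaVPE (adjusted p = 0.348) and the sorting receptor VSR1 (adjusted p = 0.122) did not pass the test. In *atring1a,b* betaVPE was the only one of the 9 that rose (3.66 ± 0.55, adjusted p = 0.0153), and in *atbmi1a,b* its adjusted p was 0.0659, with a log2 fold change of 2.57 ± 0.53. The betaVPE libraries lay close together in *atring1a,b*, at 47.6 and 42.2 CPM against 5.32 and 1.26 CPM in Col-0, and so did those in *atbmi1a,b*, at 19 and 22.3 CPM.

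Among 13 activators of storage genes, 12 were tested and 9 rose in *clf-29swn-21* and 3 in *atring1a,b*, namely FUS3, ABI3 and ABI4. ABI3, the B3 factor of late embryogenesis, had 0 counts in both Col-0 libraries and stood at 225 and 249 CPM in *clf-29swn-21*, 27 and 4.4 CPM in *atring1a,b* and 0.939 and 0.939 CPM in *atbmi1a,b*. FUS3 stood at 23.1 and 20.7 CPM in *clf-29swn-21* and at 4.84 and 0.920 CPM in *atring1a,b*, against 0.113 and 0.0467 CPM in Col-0. LEC2, an activator of the earlier embryo, stood at 2.61 and 4.92 CPM in *clf-29swn-21*. It had 2 and 1 counts in *atbmi1a,b* and 1 and 1 in *atring1a,b* (0.0277 to 0.0552 CPM), against 1 and 0 counts in Col-0. Counts this low cannot show whether LEC2 differed from Col-0 in the 4 libraries of the PRC1 mutants, where SESA2 and CRC were at 1.37 to 810 CPM. The G-box binding factor ABI5 reached 188 and 280 CPM in *clf-29swn-21* and stood at 3.35 and 3.05 CPM in *atring1a,b*, between the Col-0 libraries (0.563 and 13.3 CPM). Among the bZIP partners, bZIP67 rose in *clf-29swn-21* (7.66 and 10.5 CPM against 0.0282 and 0 CPM) and bZIP10 and bZIP25 did not pass the test.

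The repressors of the seed program VAL1, VAL2, VAL3 and PKL, of which VAL1 and VAL2 bind the RY motif, did not pass the test in any of these comparisons with Col-0 (0 of 4 called by edgeR in *clf-29swn-21*, *atring1a,b* and *atbmi1a,b*). An unadjusted p under 0.05 was reached by 1 of the 4 in each, VAL3 in *clf-29swn-21* and *atring1a,b* and VAL1 in *atbmi1a,b*. Their summed level was 215 to 229 CPM in *clf-29swn-21* and 226 to 230 CPM in Col-0. VAL1 stood at 92.4 and 104 CPM in *atbmi1a,b* against 59.8 and 57.0 CPM in Col-0 (log2 fold change 0.69 ± 0.17, adjusted p = 0.119, unadjusted p = 0.00205).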

How the data were processed

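RNA-seq and H3K27me3 ChIP-seq libraries of 2-week-old seedlings were analysed from the deposited files. The authors aligned RNA reads to TAIR10 with TopHat 2.0.8 and deposited raw counts per gene from HTSeq. ChIP reads were aligned with BWA, and the authors called peaks with MACS 1.4 and deposited 1 list per library, with a score for each peak. Rows that name no single gene (2.66% to 3.43% of counts) were left out. Counts were tested with edgeR 4.0.16 (R 4.3.3; TMM scaling, filterByExpr, quasi-likelihood test, 7 groups, all 14 libraries) over 22060 genes, with Benjamini-Hochberg adjustment and a threshold of 0.05. DESeq2 1.42.0 and the other settings under the closing section were alternatives. Shares of all genes called by a test were taken from the main edgeR fit only. Depth was 17277027 to 36205758 gene counts, and limits and intervals from counts cover counting error only. The edgeR test was also run on simulated counts with a single spread for all genes. That run does not cover genes with few counts in Col-0 or libraries as far apart as those of *atring1a,b*. Positions and promoter sequences were from the RefSeq genome TAIR10.1, where 32835 of 33602 genes matched a nuclear gene. The named genes are the 10 storage protein genes, the listed genes of the seed program and markers, and the 8 genes closest in profile. These members and lists were chosen with earlier results of these data known. The 5 samples without antibody were not analysed here. A deposited table of the authors' own fold changes and p-values was not used. The promoter of 1 gene is left out of the motif plot and is not reported here.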

Additional observations from a re-analysis of the deposited data

How the results depend on the processing

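The counts of the 10 genes called did not move in the 12 alternatives of each comparison for *clf-29*, the LHP1 lines and *swn* against Col-0 (0 called) or for *clf-29swn-21* against Col-0, *clf-29* and *swn* (10 called). The PRC1 counts did. Apart from the criterion of the study, no share of all genes was taken for the alternatives, so calls over all genes may have moved as well. For *atring1a,b* against Col-0 (2 called), the criterion of the study gave 10, DESeq2 10, the replicate block 8, a term for growth temperature 8, no scaling factors 1, no filter 1 and a fit of only the libraries compared 0, and leaving out 1 library gave 0 to 7. For *atbmi1a,b* against Col-0 (0 called), the criterion of the study gave 9 and DESeq2 2. For *atring1a,b* against *atbmi1a,b* (0 called), these gave 8 and 1, and leaving out 1 library 0 to 1. The PAP85 log2 fold change in that comparison turned to 0.41 without *atbmi1a,b* library 2 and to 0.14 without *atring1a,b* library 2, and leaving out 1 library gave -2.84 to 0.41. With a peak score of at least 100, *atring1a,b* H3K27me3 library 2 kept 1 of the 3 genes with a peak. The cause was not tested. Of 660 values for single genes, 619 kept direction and call, 10 lost the call, 29 gained it and 2 reversed. Deviations of same-numbered libraries correlated at 0.269 to 0.819 in the 6 pairs formed by *atring1a,b*, *atbmi1a,b*, *clf-29* and Col-0. In the 9 pairs with *swn* or *clf-29swn-21* the correlations were -0.127 to 0.0604, so the numbers paired the former groups only. The number goes with labelled temperature in the former groups and also in *clf-29swn-21*, whose libraries did not pair with theirs (-0.127 to 0.0604).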
